A study of Mus musculus with 4 samples.

Results

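The genes described here are 40 genes of the mouse unfolded protein response and integrated stress response, chosen by name as those of the chaperones, degradation factors, stress sensors and ATF4 targets of the endoplasmic reticulum (ER). They were measured in cultured aortic vascular smooth muscle cells given prostaglandin E2 (PGE2) or left untreated. All 40 were on the array and all 40 were tested, among 17660 tested genes or unnamed probes. Both groups were explant cultures of adult C57BL/6J aorta with the genotype EP4-Tg, so the controls carry the transgene too. EP4, a receptor for PGE2, acts through Gs to increase cyclic AMP. The promoter that drives the transgene, the number of animals and the dose of PGE2 are not given in the sources used here. There were 2 cultures given PGE2 and 2 control cultures without treatment, each for 24 h and each on 1 single-colour Agilent array. The labels call them biological replicates, so the p-values rest on the spread between 2 cultures per group. The fit (limma) moderates each gene's spread with that of all tested genes.

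When unfolded proteins build up in the ER, the sensors IRE1, ATF6 and PERK are released from the chaperone BiP. IRE1 splices the mRNA of the transcription factor XBP1, and ATF6 is cleaved to an active transcription factor. Together these raise the genes of chaperones and of ER-associated degradation, in which misfolded proteins are drawn out of the ER and destroyed. PERK phosphorylates the translation factor eIF2 alpha, as do kinases that sense amino acid shortage, viral RNA or heme shortage. That step, the core of the integrated stress response, slows translation in general and favours translation of ATF4. ATF4 raises genes of amino acid synthesis and uptake and of cell death. In smooth muscle cells of the vessel wall the folding machinery serves, among other things, the secretion of collagen and elastin. The members fall into 15 chaperones and folding enzymes, 9 genes of degradation and translocation, 7 sensors, transcription factors and phosphatase subunits, and 9 genes that depend on ATF4.

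The chaperone and ATF4-dependent members differ in the words found in their promoters, and sequences are shown for members to which the array values return below. RefSeq promoters on GRCm38.p6 (250 bases before to 50 after each start) were found for 34 members. The ER stress response element, ERSE (CCAAT, 9 bases of any kind, CCACG, either strand), is the word at which ATF6 acts with the factor NF-Y. It was in 37 of 27025 genes with a promoter, or 0.137%, and 9 of these 37 were members. It was in 7 of 13 chaperone members (Calr, Canx, Creld2, Dnajc3, Hsp90b1, Hspa5 and Pdia6) and in 2 of 7 degradation members (Derl3 and Syvn1). It was in 0 of 9 ATF4-dependent members. In the promoters of Hspa5 (chr2:34771840-34772089, plus strand) and Hsp90b1 (chr10:86705445-86705694, minus strand), each printed 5′ to 3′ up to the base before the start, capitals mark ERSE, which occurs once in Hspa5 and at 2 places in Hsp90b1:
Hspa5: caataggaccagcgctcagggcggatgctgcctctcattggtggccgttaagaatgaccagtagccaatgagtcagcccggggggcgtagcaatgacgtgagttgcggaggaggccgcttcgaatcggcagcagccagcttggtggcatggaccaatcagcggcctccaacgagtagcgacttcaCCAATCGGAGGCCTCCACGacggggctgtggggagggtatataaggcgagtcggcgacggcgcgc
Hsp90b1: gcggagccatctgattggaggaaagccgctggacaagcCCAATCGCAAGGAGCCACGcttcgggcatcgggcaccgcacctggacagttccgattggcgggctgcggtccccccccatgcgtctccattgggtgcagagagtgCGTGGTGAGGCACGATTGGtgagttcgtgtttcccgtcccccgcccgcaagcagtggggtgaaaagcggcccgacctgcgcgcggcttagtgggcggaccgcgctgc

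The word bound by ATF4 with a C/EBP partner (CARE, TGATGNAA on either strand) was in 4.51% of all genes with a promoter. It was in 4 of 9 ATF4-dependent members (Asns, Chac1, Nupr1 and Trib3), in 1 degradation member (Herpud1) and in 0 of 13 chaperone members. Its first base lay at -23 in Asns, -193 in Chac1, -110 in Nupr1, -112 in Herpud1 and 15 in Trib3, counted from the start with negative positions before it. Capitals mark CARE in the promoters of Asns (chr6:7693210-7693459, minus strand), Chac1 (chr2:119350992-119351241, plus strand) and Nupr1 (chr7:126625471-126625720, minus strand), and in the 28 bases around the site of Trib3 (chr2:152344029-152344056, minus strand). These are shown because the first 3 genes are among those whose control cultures differed most, and Trib3 differed from its arm in direction:
Asns: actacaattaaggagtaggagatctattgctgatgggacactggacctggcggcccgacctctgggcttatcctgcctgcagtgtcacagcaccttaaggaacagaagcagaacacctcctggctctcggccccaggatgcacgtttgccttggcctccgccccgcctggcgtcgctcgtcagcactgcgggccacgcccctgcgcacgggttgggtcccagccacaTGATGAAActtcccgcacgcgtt
Chac1: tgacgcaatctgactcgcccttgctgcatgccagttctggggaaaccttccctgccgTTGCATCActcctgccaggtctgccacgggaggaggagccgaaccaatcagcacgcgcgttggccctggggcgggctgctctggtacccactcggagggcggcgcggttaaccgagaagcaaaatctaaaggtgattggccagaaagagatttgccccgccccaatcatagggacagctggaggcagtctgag
Nupr1: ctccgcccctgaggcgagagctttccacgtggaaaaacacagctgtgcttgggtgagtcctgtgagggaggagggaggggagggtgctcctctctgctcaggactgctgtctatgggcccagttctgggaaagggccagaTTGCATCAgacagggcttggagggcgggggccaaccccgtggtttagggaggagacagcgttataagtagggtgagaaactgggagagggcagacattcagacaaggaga
Trib3: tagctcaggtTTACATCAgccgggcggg

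The full cyclic AMP response element (CRE, TGACGTCA), the word at which CREB acts after cyclic AMP rises, was in 2.03% of all genes and in 1 member. That was Ppp1r15a, which encodes GADD34, the stress-inducible subunit that directs phosphatase to eIF2 alpha. Its CRE began at -12 and is in capitals in the promoter (chr7:45526269-45526518, minus strand):
Ppp1r15a: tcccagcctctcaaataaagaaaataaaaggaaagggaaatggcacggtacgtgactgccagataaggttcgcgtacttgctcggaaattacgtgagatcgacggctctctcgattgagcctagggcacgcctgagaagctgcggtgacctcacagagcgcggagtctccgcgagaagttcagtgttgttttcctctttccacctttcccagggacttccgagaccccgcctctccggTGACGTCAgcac
The shorter word TGACG, which CRE contains, was in 13 of 34 members, against 23.0% of all genes. The XBP1 word TGACGTGG, which also contains TGACG, was in 0 of 34 members, against 0.714% of all genes. A match of letters describes the window only, and binding was not measured.

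No member passed the threshold of the test with PGE2. Limma with Benjamini-Hochberg adjustment over all tested genes called 0 of 40 members, against 118 of 17660 tested genes, or 0.668%. The smallest adjusted p among members was 0.179, for Phgdh. At an unadjusted p under 0.05, 2 of 40 members were higher with PGE2 (Trib3 and Edem1), against 7.31% of all tested genes, and 1 of 40 was lower (Phgdh), against 10.5% of all tested genes. Both PGE2 arrays lay above both control arrays in 12 of 40 members, against 24.0% of all tested genes, and below both in 3 of 40 members, against 28.3%. In the other 25 the groups overlapped. The smallest fitted change called in any gene was 3.30-fold, and no member's fitted change reached that size.

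All 40 members were represented by a probe well above background on all 4 arrays. Levels below are log2 signals of one probe relative to the 75th percentile of its array, so that 0 is that percentile, and they are not compared between genes. Log2 changes are the mean level with PGE2 minus the mean level in control, ± their standard error from limma (n = 2 per group). In pooled RNA of a culture, fewer cells of a type and less RNA per cell cannot be told apart.

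The chaperone genes had small fitted changes with PGE2. Their median log2 change was 0.07, over a range of -0.33 to 0.46, with 10 of 15 above 0, beside a median of -0.03 over all tested genes. Changes beyond 0.5 on the log2 scale in either direction were present in 0 of 15 chaperones, against 27.8% of all tested genes. That count depends on the probe, the scaling and the arrays. Second kept probes of P4hb (not well above background in control) and Dnajb9 were at 0.64 and 0.63. P4hb was at 0.71 on the authors' deposited scaled signal. Hyou1 was at 0.64 without control 1 and at -1.07 without control 2. Hspa5, which encodes BiP, the chief Hsp70 of the ER and the usual readout of the unfolded protein response, had levels of 5.28 and 5.24 with PGE2, against 5.41 and 4.97 in control. Both PGE2 values lay between the control values, and the log2 change was 0.07 ± 0.21 (limma adjusted p = 0.892), with a 95% interval of -0.52 to 0.66. Hsp90b1, which encodes the ER Hsp90 (GRP94), had levels of 5.97 and 5.87 with PGE2, against 6.16 and 5.80 in control. Again the PGE2 values lay inside the control pair, with a log2 change of -0.06 ± 0.20 (limma adjusted p = 0.901) and a 95% interval of -0.60 to 0.48. Its sign depended on the scaling, with 0.14 after quantile normalization, 0.06 after normexp correction and 0.20 on the authors' deposited scaled signal. Both are genes whose promoters hold ERSE, printed above. The 9 members with that word had a median log2 change of -0.06, with 4 above 0 and 5 below.

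Of the thiol enzymes that form and exchange disulfide bonds, P4hb and Pdia4 were higher with PGE2 on both arrays and Pdia6 was lower. P4hb, protein disulfide isomerase and a subunit of the collagen prolyl hydroxylase, had levels of 5.27 and 5.17 with PGE2, against 4.87 and 4.66 in control. The groups did not overlap, and the log2 change was 0.46 ± 0.17 (limma adjusted p = 0.285). Pdia4 had levels of 1.32 and 1.41 with PGE2, against 0.97 and 0.95 in control, with a log2 change of 0.40 ± 0.15 (limma adjusted p = 0.293). Pdia6 had levels of 5.26 and 5.52 with PGE2, against 5.73 and 5.72 in control, with a log2 change of -0.33 ± 0.17 (limma adjusted p = 0.407). The disulfide isomerases thus lay on both sides of 0, and Pdia3, which works with the lectin chaperones calreticulin and calnexin, was at 0.02. Those lectins, Calr and Canx, had log2 changes of -0.08 and -0.12.

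The BiP cochaperone gene Dnajb9 (ERdj4), a sensitive target of XBP1, had levels of 1.74 and 1.53 with PGE2, against 1.47 and 1.30 in control. Its PGE2 arrays lay above its control arrays, by a margin smaller than the gap within either group, and the log2 change was 0.25 ± 0.17 (limma adjusted p = 0.509). The other J-domain cochaperones Dnajb11 and Dnajc3 had log2 changes of 0.13 and 0.05, and their groups overlapped. So did those of Sdf2l1, a partner of Dnajb11, at 0.28, of Manf, a small secreted ER stress protein, at 0.22, and of Creld2, a folding factor that is also secreted, at 0.19. Hyou1, the nucleotide exchange factor of BiP, was the noisiest of the chaperones, with levels of -2.36 and -2.60 with PGE2, against -1.41 and -3.02 in control. Its 3 kept probes disagreed in sign, with a log2 change of -0.26 on the probe used and of 0.29 and 0.28 on the other 2.

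**Figure D1:**
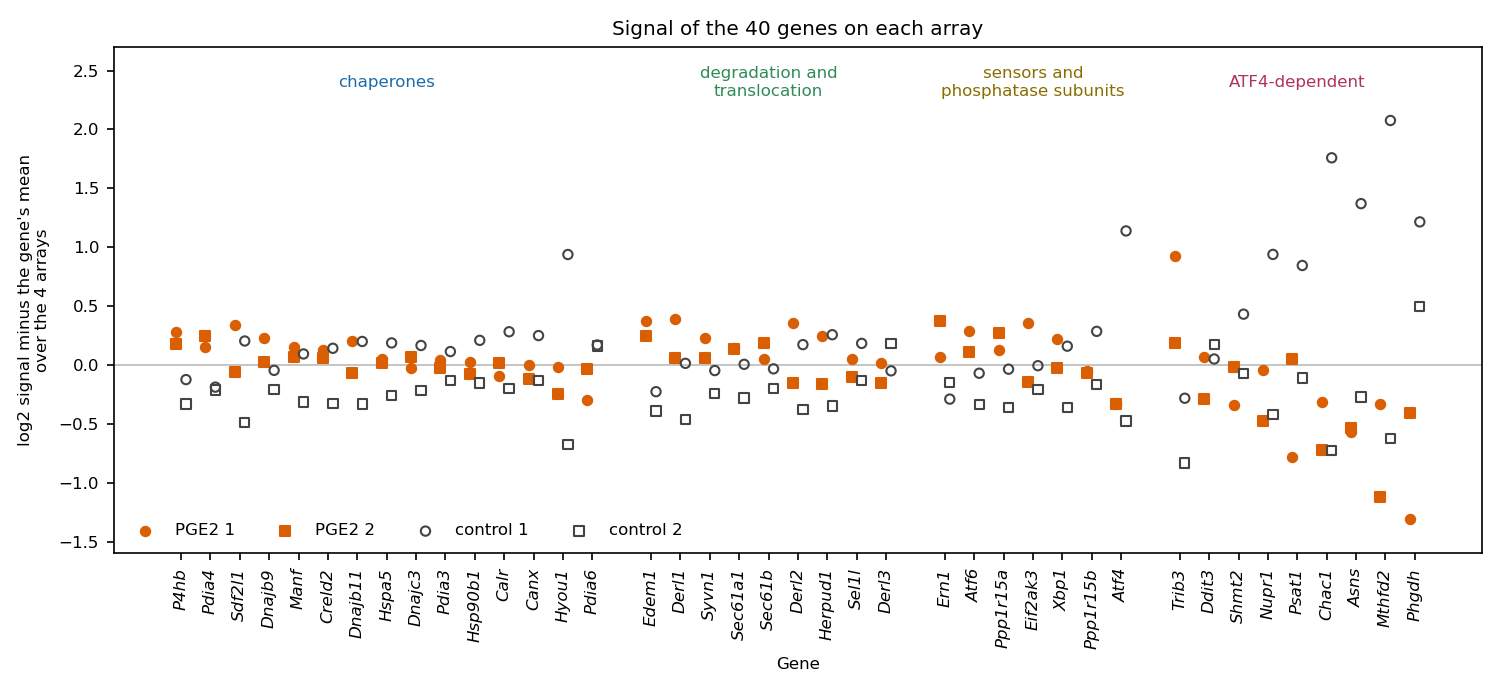
Log2 signal of each of the 40 genes on each array, minus that gene's mean over the 4 arrays, by arm and ordered within each arm by the change with PGE2 (filled orange, PGE2; open, control; circles, culture 1; squares, culture 2). In the ATF4-dependent arm and for Atf4 the open circles of control 1 stand far above the other 3 arrays for Asns, Chac1, Mthfd2 and Atf4, while most chaperone values lie within 0.5 of the mean.

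The degradation and translocation genes had a median log2 change of 0.23, with 7 of 9 above 0 and a range of -0.13 to 0.62. Without control 1 the median was 0.39, with 8 of 9 above 0, and without control 2 it was 0.13, with 5 of 9 above 0. In 5 of 9 both PGE2 arrays lay above both control arrays, against 24.0% of all tested genes, and in 0 of 9 below. Edem1, a mannosidase-like protein that marks misfolded glycoproteins for degradation, had levels of 1.69 and 1.57 with PGE2, against 1.09 and 0.93 in control. The gap between the groups was wider than that within either, and the log2 change was 0.62 ± 0.16 (limma adjusted p = 0.196). Its second kept probe was 0.78 higher with PGE2 on the log2 scale. Derl1, which encodes a channel-forming Derlin, had levels of 2.90 and 2.57 with PGE2, against 2.53 and 2.05 in control. The groups nearly touched, with a log2 change of 0.45 ± 0.25 (limma adjusted p = 0.427), and its second kept probe was at -0.14.

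Syvn1, which encodes the ubiquitin ligase HRD1, had levels of 4.30 and 4.13 with PGE2, against 4.02 and 3.83 in control, a log2 change of 0.29 ± 0.17 (limma adjusted p = 0.454). Sec61a1, the pore of the translocon through which new proteins enter the ER, had levels of 4.81 and 4.80 with PGE2, against 4.67 and 4.39 in control, a log2 change of 0.28 ± 0.18 (limma adjusted p = 0.487). In both genes the PGE2 arrays lay just above the control arrays, as in Sec61b, a smaller translocon subunit, at 0.23. The rest of this arm overlapped between groups. Herpud1 encodes a membrane partner of HRD1, and its promoter window held CARE but not ERSE as searched here. Levels of Herpud1 were 3.49 and 3.08 with PGE2, against 3.49 and 2.89 in control. Its pairs covered nearly the same span, and its log2 change was 0.09 ± 0.29 (limma adjusted p = 0.896), with a 95% interval of -0.71 to 0.89. Derl2, Sel1l, the HRD1 adaptor, and Derl3 had log2 changes of 0.20, -0.05 and -0.13.

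The 7 sensors, factors and phosphatase subunits had a median log2 change of 0.21, which was 0.37 without control 1 and 0.11 without control 2. Among the 3 sensors, Ern1 and Atf6 lay higher with PGE2 on both arrays. Ern1, which encodes IRE1 alpha, had levels of 1.24 and 1.55 with PGE2, against 0.89 and 1.03 in control. The groups were separate, and the log2 change was 0.44 ± 0.19 (limma adjusted p = 0.334). A second kept Ern1 probe was 0.52 higher on the same scale, and another, not well above background in control, was 1.59 higher. Atf6 had levels of 0.21 and 0.03 with PGE2, against -0.16 and -0.42 in control, a log2 change of 0.40 ± 0.19 (limma adjusted p = 0.354). Eif2ak3, which encodes PERK, had a log2 change of 0.21, and its groups overlapped.

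Xbp1 had levels of 4.80 and 4.56 with PGE2, against 4.74 and 4.22 in control. The pairs overlapped, with a log2 change of 0.20 ± 0.25 (limma adjusted p = 0.712), and splicing of its mRNA was not measured. Ppp1r15a, the member whose promoter holds a full CRE, had levels of 2.45 and 2.60 with PGE2, against 2.29 and 1.96 in control. Its PGE2 arrays lay above its control arrays, with a log2 change of 0.40 ± 0.19 (limma adjusted p = 0.377). The constitutive counterpart Ppp1r15b, which has the same function without stress, was at -0.12 with overlapping groups. The other 378 tested genes with a CRE in the promoter had a median log2 change of 0.04.

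Atf4 had levels of 5.14 and 5.14 with PGE2, against 6.61 and 4.99 in control. Control 1 alone was high, and the 2 PGE2 arrays lay just above control 2. The log2 change was -0.66 ± 0.58 (limma adjusted p = 0.601), and without control 1 it was 0.14. A second Atf4 probe gave -0.68, with control 1 above control 2 by 1.59 on the log2 scale. ATF4 is set mainly by translation, which an array of RNA does not measure.

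The genes that depend on ATF4 varied most, and mainly within the control group. Their median log2 change was -0.74, over a range of -1.71 to 1.11, with 1 of 9 above 0 and 8 below. Changes beyond 1 on the log2 scale in either direction were present in 5 of 9, or 55.6%, against 10.8% of all tested genes and 0 of the other 31 members. Control 1 was above control 2 in 8 of these 9 genes, and the median difference over the 9 was 0.95 on the log2 scale, beside a median of 0.11 over all tested genes. Without control 1 the median change of the arm was -0.10, with 3 above 0 and 6 below, and without control 2 it was -1.21.

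Asns, asparagine synthetase and a standard readout of ATF4, had levels of 2.33 and 2.36 with PGE2, against 4.26 and 2.62 in control. The PGE2 arrays were close together and below both control arrays, with a log2 change of -1.10 ± 0.59 (limma adjusted p = 0.413) that became -0.28 without control 1. Its second kept probe gave -1.14. Chac1, which breaks down glutathione, had levels of 0.94 and 0.53 with PGE2, against 3.01 and 0.53 in control, so that control 2 was close to the lower PGE2 array. Mthfd2, a mitochondrial folate enzyme, had levels of -1.22 and -2.02 with PGE2, against 1.18 and -1.52 in control. Nupr1, a small stress-induced chromatin protein, had levels of 7.33 and 6.90 with PGE2, against 8.32 and 6.96 in control. In these 3 genes control 2 lay inside or at the edge of the PGE2 pair, and their log2 changes of -1.03, -1.45 and -0.52 became 0.21, -0.10 and 0.16 without control 1. The 5 members with CARE had a median difference of 1.36 between control 1 and control 2, while the other 295 tested genes with that word had a median of 0.12.

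Phgdh and Trib3 kept log2 changes over 0.5 in size whichever array was left out, though neither passed the threshold. Outside this arm Edem1 did so too, at 0.53 to 0.70, and it did not pass the threshold either. Phgdh, the enzyme that commits glycolytic carbon to serine synthesis, had levels of 2.00 and 2.90 with PGE2, against 4.52 and 3.80 in control. All values with PGE2 were below all control values, and the log2 change was -1.71 ± 0.43 (limma adjusted p = 0.179), with a 95% interval of -2.88 to -0.54. Leaving out each array in turn gave log2 changes of -2.16 to -1.26, with -1.35 without control 1 (limma adjusted p = 0.345). Trib3, a pseudokinase that is induced by ATF4 and CHOP and restrains them and Akt signalling, had levels of 3.03 and 2.30 with PGE2, against 1.82 and 1.27 in control. It was the 1 gene of the arm that was higher with PGE2, with a log2 change of 1.11 ± 0.35 (limma adjusted p = 0.240), a 95% interval of 0.15 to 2.08 and a range of 0.75 to 1.48 when each array was left out (1.39 without control 1, limma adjusted p = 0.309).

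Ddit3, which encodes the death-promoting factor CHOP, had levels of 0.81 and 0.45 with PGE2, against 0.79 and 0.91 in control. The groups overlapped, with a log2 change of -0.22 ± 0.20 (limma adjusted p = 0.607) and a 95% interval of -0.77 to 0.32. Psat1, which follows Phgdh in serine synthesis, had levels of 1.20 and 2.04 with PGE2, against 2.83 and 1.88 in control. Shmt2, the mitochondrial enzyme that passes serine carbon to folate, had a log2 change of -0.36, against -0.74 for Psat1. The second kept probe of Psat1 was at -0.19. Of the serine pathway members, Phgdh had the only groups that did not overlap. Both PGE2 arrays lay below both control arrays in 28.3% of all tested genes.

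**Figure D2:**
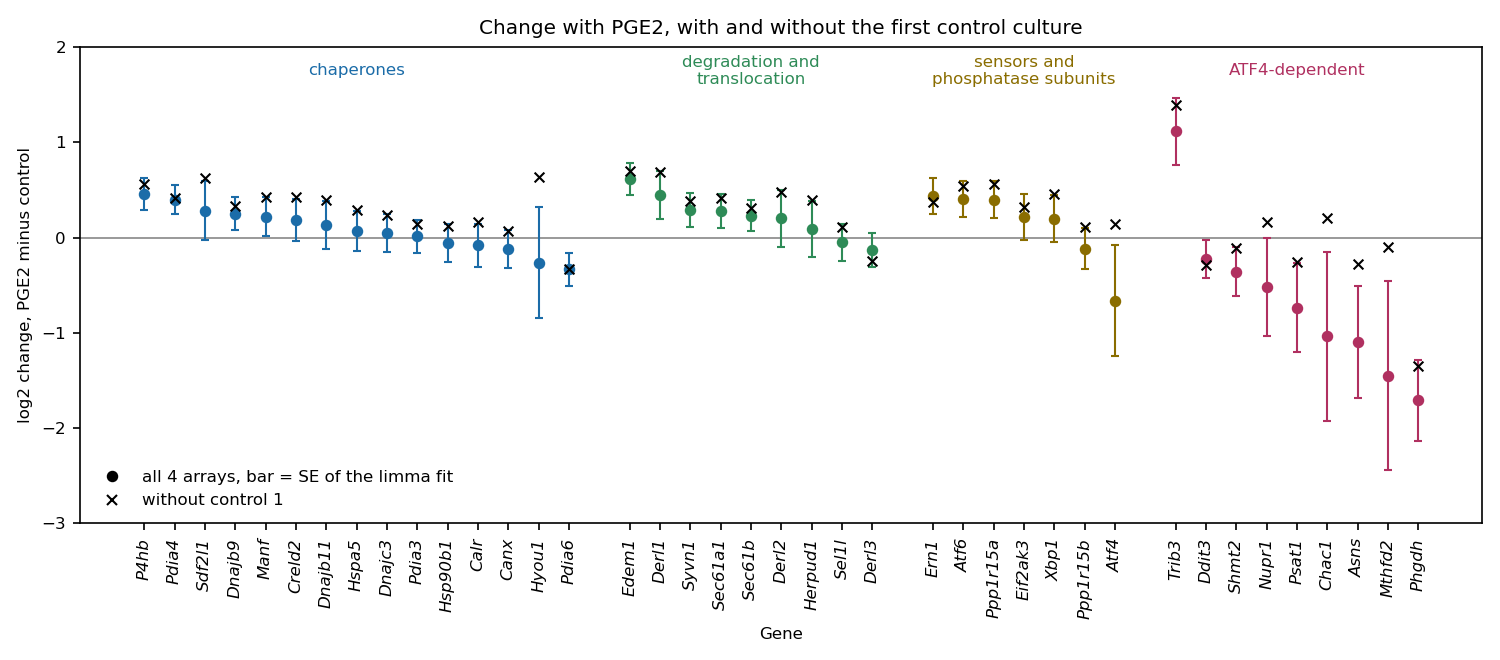
Log2 change (PGE2 minus control) of each of the 40 genes with bars of 1 standard error from limma (n = 2 per group), coloured by arm, and the change without control 1 (crosses). The crosses of Atf4, Nupr1, Chac1, Asns and Mthfd2 lie between -0.28 and 0.21, while those of Phgdh and Trib3 stay at -1.35 and 1.39.

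The control cultures differed over the whole set, but not in the same way in each arm. In the ATF4-dependent arm control 1 was the highest array in 7 of 9 genes. Among the other 31 members control 2 was the lowest array in 28, while control 1 was the highest in 13 and PGE2 1 in 13. Control 1 was above control 2 in 37 of 40 members, by a median of 0.43 on the log2 scale, and in 15 of 15 chaperones, against 61.0% of all tested genes. Control 1 was above control 2 by over 1 in 6 of 40 members, or 15%, against 2.80% of all tested genes. These 6 were Asns, Atf4, Chac1, Mthfd2, Nupr1 and Hyou1. In either direction, the control arrays differed by over 1 in 6 of 40 members, against 1591 of 17660 tested genes. The PGE2 arrays differed by over 1 in either direction in 0 of 40 members, against 6.68% of all tested genes (1180 of 17660). Without control 1 the median change of the chaperone arm was 0.33, with 14 of 15 above 0, and without control 2 it was -0.13, with 4 of 15 above 0. The direction of the chaperone arm therefore rests on which control culture it is read against. Over all members the median was 0.08 with all 4 arrays, 0.32 without control 1 and -0.12 without control 2. On the authors' deposited scaled signal, which moves the median of all tested genes by 0.26 to 0.23, the median was 0.33 for the chaperones, 0.49 for degradation and translocation, 0.47 for the sensors and -0.48 for the ATF4-dependent arm.

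**Figure D3:**
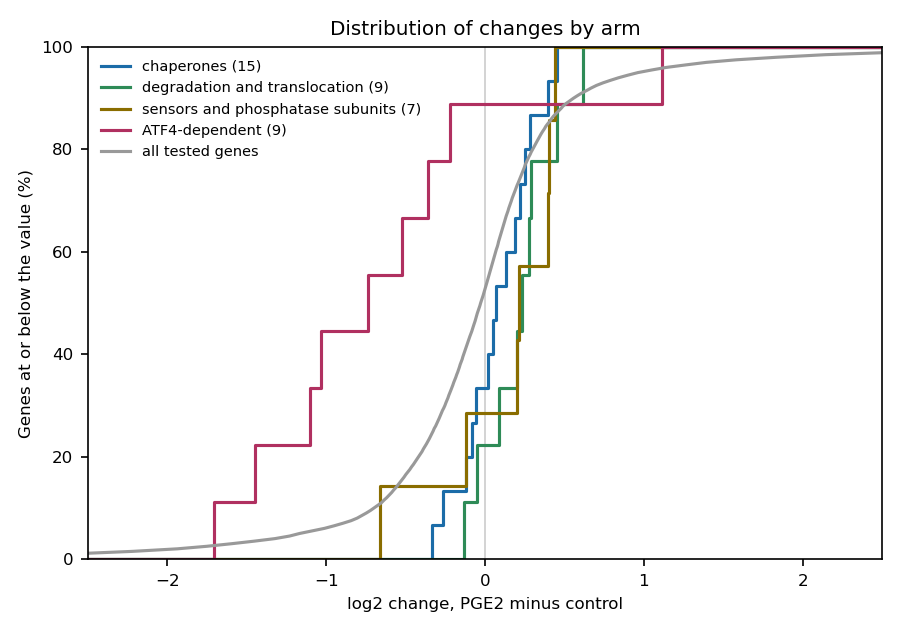
Cumulative share of genes (%) at or below each log2 change (PGE2 minus control) for the 4 arms and for all 17660 tested genes. The chaperone, degradation and sensor curves are steep and close to 0, and the ATF4-dependent curve lies to the left of that of all tested genes except for Trib3 at 1.11.

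Other genes of the same pathways also lay on both sides of 0. Of all tested genes, limma called 0.668%, and at an unadjusted p under 0.05 7.31% were higher and 10.5% lower. The counts of each list below are to be read beside these shares. Of 41 other ER folding, disulfide and glycan enzymes tested, 0 were called by limma, 2 were higher and 2 were lower at an unadjusted p under 0.05, and the median log2 change was 0.12. The smallest p values were those of Ganab, glucosidase II alpha, at 0.59 ± 0.15, Fkbp7, an ER prolyl isomerase, at 1.09 ± 0.32, and Txndc5, a disulfide isomerase, at -0.53 ± 0.16. Of 29 other degradation genes, 0 were called, 1 was higher and 0 were lower at an unadjusted p under 0.05, with a median of 0.13. The 1 was March6 (current symbol Marchf6), an ER ubiquitin ligase, at 0.57 ± 0.15. Without control 2 the median of the degradation list was -0.02, with 13 of 29 above 0, and on the authors' deposited scaled signal it was 0.38, with 27 of 29 above 0. The folding list had a median of 0.21 without control 1, 0.04 without control 2 and 0.37 on the scaled signal.

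Of 23 other translocation and signal peptide genes, 0 were called by limma, and 1 was lower at an unadjusted p under 0.05, with a median of 0.12. That gene, the signal peptidase subunit Spcs3, had levels of 0.87 and 1.26 with PGE2, against 3.24 and 2.98 in control, a log2 change of -2.05 ± 0.22 (limma adjusted p = 0.0616). It differed by far more than any member of the translocation arm. Of 19 other sensors and their transcription factors, 0 were called, 1 was higher and 4 were lower at an unadjusted p under 0.05, with a median of 0.15. Bbc3, the cell death gene PUMA, was at -1.51 ± 0.20 (limma adjusted p = 0.0772), the collagen-secretion factor gene Creb3l1 at -1.90 ± 0.51 and Cebpb at 1.09 ± 0.30. Without control 2 the median was 0.01 for the translocation list and 0.01 for the sensor list, and on the authors' deposited scaled signal these medians were 0.38 and 0.41.

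The 37 tested ATF4-dependent genes outside the members had a median log2 change of -0.29, with 9 above 0 and 28 below. Of these 37, 2 fell with PGE2 at an adjusted p under 0.05 in limma, against 118 of 17660 tested genes (0.668%) called in either direction. The list was chosen with earlier results of these data known. Vldlr, a lipoprotein receptor induced by ATF4, had levels of 0.69 and 0.41 with PGE2, against 4.17 and 3.75 in control, a log2 change of -3.41 ± 0.23 (limma adjusted p = 0.0438). Its groups were more than 3 log2 units apart and its control cultures were close together. Stc2, a secreted glycoprotein, had levels of -4.13 and -4.16 with PGE2, against -1.74 and -2.04 in control (limma adjusted p = 0.0465). It passed the filter through the control arrays and was well above background on only 1 of the PGE2 arrays, so its fitted log2 change of -2.26 rests partly on a signal near background. Neither was called when control 1 or control 2 was left out or on the authors' deposited scaled signal, as with every gene on the array, and 1 gene of the list was called without PGE2 1 and 1 without PGE2 2. In the opposite direction, Slc3a2, the heavy chain of the amino acid transporters that carry cystine and leucine, was at 1.24 ± 0.28 (limma adjusted p = 0.161). Control 1 was above control 2 in 33 of 37 of these genes, and without control 1 their median was 0.04. On the authors' deposited scaled signal it was -0.04.

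Of 16 other serine, glycine and folate enzymes, 0 were called by limma, 2 were higher and 3 were lower at an unadjusted p under 0.05, with a median of -0.18. Mthfd2l, a close relative of Mthfd2, was at 0.76 ± 0.17 (limma adjusted p = 0.153). Of 36 cytosolic and mitochondrial heat shock genes, 0 were called, and 3 were higher and 3 lower at an unadjusted p under 0.05, with a median of 0.05. Cryab and Hspb2, small heat shock proteins of muscle, were at -1.65 ± 0.28 and -1.44 ± 0.29, and Dnajb6 was at 0.81 ± 0.16. The heat shock median was -0.03 without control 2 and 0.31 on the authors' deposited scaled signal, and that of the serine and folate list was -0.24 and 0.08. Of the genes on these lists, 6 stand on more than 1.

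**Figure D4:**
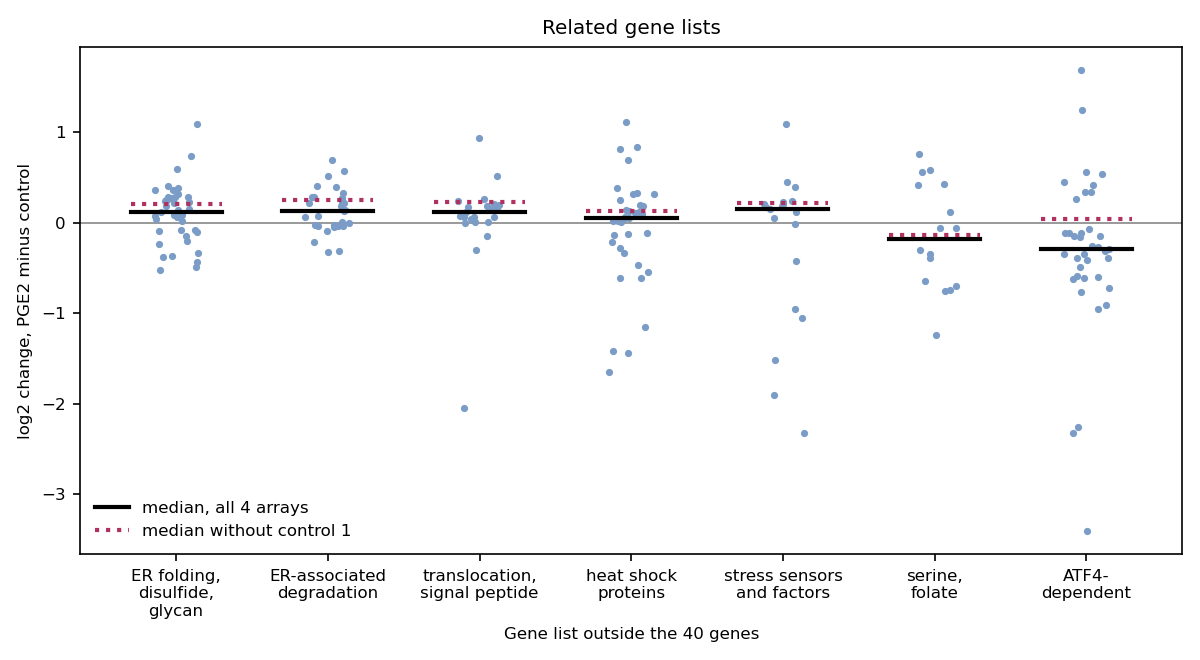
Log2 change (PGE2 minus control) of each tested gene on 7 lists of related genes outside the 40, with the median over all 4 arrays (solid) and without control 1 (dotted). The ATF4-dependent list has the lowest median, -0.29, which is 0.04 without control 1, and its lowest point is Vldlr at -3.41.

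Across the series, 70 genes were higher and 48 lower with PGE2 at an adjusted p under 0.05. Between 47.9% and 53.8% of 59305 spots per array were well above background and none was saturated. Arrays correlated across genes at r = 0.978 within PGE2, r = 0.974 within control, and r = 0.943 to 0.958 between groups. Of 12 contractile smooth muscle markers, 8 were well above background on all 4 arrays, and Myh11, Myocd, Lmod1 and Des, which define the differentiated state, were not. Their summed level, the log2 of the total signal on the same scale, was 7.63 and 7.93 with PGE2, against 9.76 and 8.97 in control. All 8 detected contractile markers were lower with PGE2 by value, and 1 of them, Itga8, was called. Fibroblast markers summed to 5.03 and 4.78 with PGE2, against 7.67 and 6.53 in control (6 of 7 detected). That sum is carried by Dcn, with levels of 4.22 and 3.89 with PGE2, against 7.58 and 6.36 in control. Of the 6, 3 had log2 changes above 0 (Pi16, Clec3b and Pdgfra at 2.78, 1.42 and 0.60) and 3 below. Macrophage and leukocyte markers summed to 5.96 and 5.40 with PGE2, against 6.30 and 6.02 in control (6 of 9 detected, Adgre1 and Lyz2 not). That sum is carried by Itgam, with levels of 5.69 and 5.11 with PGE2, against 6.17 and 5.86 in control, and 3 of the 6 had log2 changes above 0 (Cd68, Csf1r and Cd14 at 2.09, 0.98 and 0.62). Endothelial markers summed to -0.62 and -0.25 with PGE2, against -0.06 and 0.12 in control (2 of 9 detected), and adipocyte markers to -1.63 and -1.69 with PGE2, against -1.52 and -1.45 in control (1 of 4). Control 1 thus had the highest contractile, fibroblast, and macrophage and leukocyte sums. It also had the highest values of most ATF4-dependent members, and the part of any of these sums in those values was not tested.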

How the data were processed

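Total RNA of 4 cultures was labelled with Cy3, per the labels' protocols. Each deposited scanner file gives the intensity of every spot, as read with Agilent Feature Extraction 11.5.1.1 (protocol GE1_1105_Oct12, design 074809, build mm9), per the file headers, and with version 12.0.3.1 per the submitters' processing notes. In the deposited series table the scaled signal is the processed intensity multiplied by a constant for each array (1.07 and 0.990 for PGE2 1 and 2, 0.964 and 0.945 for control 1 and 2), on the same linear scale and in the same direction, with medians of 39.9, 40.5, 32.7 and 42.9. It served as an alternative and for symbols. Its 4 columns of detection calls per sample were not used. All arrays carry 1 scan identifier, so no scan batch could be tested.

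From the deposited intensity, log2 values minus each array's 75th percentile over non-control spots were computed. A change shared by most genes would not show on this scale. Spots of a probe were averaged, 158 probes with outlier flags were left out, and a probe was kept if well above background on both arrays of a group (26100 of 56605). Each gene was taken by its brightest kept probe. Of 47700 spots with a symbol, 44970 matched RefSeq of GRCm38.p6, used for current symbols and promoters. PGE2 was compared with control by limma 3.58.1 (lmFit, eBayes, two-sided, 2 residual and 2.15 prior degrees of freedom) in R 4.3.3 (data.table package, version 1.17.8), adjusted over 17660 tests. The steps were tested on simulated data. Arms and lists are given as medians and counts, with no set test. The number of arrays limits the precision. Of the members' 77 probes 67 were kept. Of 22 members with more than 1, 3 had kept probes of both signs (Hyou1, Derl1 and Sel1l).

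The members and gene lists were chosen with earlier results of these data known. Full values were given for Hspa5, Hsp90b1, Xbp1, Atf4, Ddit3, Trib3, Asns, Herpud1 and Ppp1r15a, for members past the threshold, and in each arm for up to 4 members of largest change whose groups did not overlap. In each list called genes or up to 3 of smallest p were named, and some genes the rule would name are not reported here. The protein-level check planned for ER retrieval signals was not run. Alternatives were quantile normalization, median centring, normexp, the scaled signal, 2 other filters, the mean over probes, a replicate block, each array left out, and, chosen after seeing the data, the percentile over probes.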

Additional observations from a re-analysis of the deposited data

How the results depend on the processing

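Members called numbered 0 in limma under each of the 13 alternatives, with smallest adjusted p values of 0.0720 to 0.462 and 1 to 14 members at an unadjusted p under 0.05. The 14, of which 13 were higher, came on the authors' scaled signal. Over all genes, 118 calls became 54 with probes well above background on all 4 arrays, and 0 on the authors' scaled signal (4204 at an unadjusted p under 0.05) and 0 with no filter on dim probes (2685). The calls ranged from 0 to 173 when 1 array was left out, with 0 without control 1 (2713) or control 2 (2967), 108 without PGE2 1 (54 higher and 54 lower) and 173 without PGE2 2. Quantile normalization gave 87, and the percentile over probes 171. With no filter, the median of all genes moved by -0.30 on the log2 scale.

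On the authors' scaled signal the median change was 0.33 for the chaperones, 0.49 for degradation and translocation and 0.47 for the sensors, where that of all genes moved by 0.26. With 1 array left out it ranged from -0.13 to 0.33 for the chaperones and from -1.21 to -0.10 for the ATF4-dependent arm. Of the members given with full values, signs turned for Hsp90b1 (0.14 after quantile normalization, 0.062 after normexp, 0.20 on the scaled signal), Ddit3 (0.036 on the scaled signal) and Herpud1 (-0.00916 after normexp). With 1 array left out the sign turned in 19 of 40 members at least once, 9 of them without control 1 and 9 without control 2. Among the members with full values it turned in Atf4 (-1.47 to 0.14), Hspa5 (-0.15 to 0.29), Hsp90b1 (-0.24 to 0.12), Herpud1 (-0.21 to 0.39) and Xbp1 (-0.061 to 0.46). The cause of the changes that do not follow from fewer samples or fewer genes was not tested. A group left with 1 array is assumed to vary like the other group. Normexp used the median signal, as no mean signal column was used here.

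Nothing in the labels ties the replicate numbers to a shared batch or day, so the block was an alternative only. Same-numbered arrays deviated together across genes (r = 0.42). With the replicate number as a block, 172 genes were called over all, 88 higher and 84 lower, and 0 members, with a smallest adjusted p of 0.0720 and 6 of 40 members (15%) at an unadjusted p under 0.05, against 24.6% of all tested genes.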

Other observations

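The 128 tested genes outside the members that the deposited table assigns to the KEGG pathway of protein processing in the ER, a list chosen after seeing the data, had a median log2 change of 0.12 with PGE2, with 87 above 0 and 41 below. Limma called 0 of them, against 0.668% of all tested genes. At an unadjusted p under 0.05, 7 were higher and 3 lower, against 7.31% and 10.5% of all tested genes. Control 1 was above control 2 in 106 of these 128.

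Among the 28 genes outside the members whose promoters hold ERSE, 9 were tested. Their median log2 change was -0.04, with 4 above 0 and 5 below. Spats2l was at -1.29 (limma adjusted p = 0.125) and Hnrnpa3 at 0.48 (limma adjusted p = 0.257).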
